A study of Mus musculus with 12 samples.

Results

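The 6 total-RNA libraries of mouse heart in this series were divided into sets chosen by their measured level of Pdk4, without regard to their genotype labels. Pdk4 encodes pyruvate dehydrogenase kinase 4, which phosphorylates and so inhibits the pyruvate dehydrogenase complex. The 3 libraries with more than 3000 normalised counts of Pdk4 were control 490, knockout 492 and knockout 501, and are called high-Pdk4 here. The 3 with fewer were control 498, knockout 499 and control 502, and are called low-Pdk4. These 6 are all the heart total-RNA libraries of the 12 samples in the series, and the other 6, of RNA ends from heart mitochondria, are not analysed here. The measured Pdk4 value chose both sets, so what separates them is given as a description, with each library's value and no test. Genotype, which the labels give, was tested.

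Hearts came from C57BL/6N mice aged 52 weeks, kept on a cycle with 12 h of light and fed normal chow without restriction. Controls were Rexo2loxP/loxP, and knockouts carried the same floxed alleles together with Ckmm (Rexo2loxP/loxP, +/Ckmm). Rexo2 encodes an exonuclease of short RNAs, and the muscle creatine kinase promoter, Ckmm, commonly drives Cre in heart and skeletal muscle cells. Loss of Rexo2 and presence of the Ckmm allele cannot be told apart here, and other cell types of the heart keep floxed Rexo2 where that promoter is silent. The labels do not tie a library to its own animal, so the spread between libraries may be partly technical, and they give neither the hour of collection nor the time since the last meal.

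Heart muscle draws most of its energy from fatty acids. When fatty acids are plentiful, as in fasting, they bind the nuclear receptors PPARα and PPARδ, which pair with RXR and switch on genes for fatty acid uptake, storage and oxidation. Pdk4 is a classical target of these receptors, and is also known to respond to glucocorticoids and to FoxO factors, which insulin restrains. By limiting the conversion of pyruvate to acetyl-CoA, PDK4 spares glucose while fat is burnt.

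Sequencing depth ran from 41979163 to 50764023 reads, recovered from the deposited values, and mtDNA-encoded features took 69.4% to 71.9% of reads. Both ranges overlapped between the sets: 50764023, 43867377 and 41979163 reads in the high-Pdk4 libraries against 48006165, 49722049 and 43561069 in the low-Pdk4 ones. The mtDNA share did separate the genotypes. It was 69.4%, 70.0% and 69.5% in controls 490, 498 and 502, and 71.5%, 71.9% and 71.5% in knockouts 492, 499 and 501. Control 490 stood apart from the rest on the first principal component of 18250 features, at 30.1, where the other libraries lay between -16.7 and 5.63. The targeted gene, Rexo2, had 330, 368 and 293 normalised counts in the control libraries (490, 498, 502) and 274, 288 and 314 in those labelled knockout (492, 499, 501). The groups overlapped for Rexo2 (log2 fold change -0.17, limma adjusted p = 1.00), so its level does not check the genotype labels, and "knockout" below means the library labelled so.

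Promoters of 3 genes are shown because each gene separates the library sets below and each has been described as a PPAR target. Sequences are from RefSeq (GRCm38.p6), cover 250 bases before the annotated start to 50 after it, and read 5' to 3' on the gene's strand. Capitals mark AGGTCA, the core half-site that PPAR and RXR recognise, on either strand.
Pdk4 promoter, chr6:5496229-5496528, minus strand: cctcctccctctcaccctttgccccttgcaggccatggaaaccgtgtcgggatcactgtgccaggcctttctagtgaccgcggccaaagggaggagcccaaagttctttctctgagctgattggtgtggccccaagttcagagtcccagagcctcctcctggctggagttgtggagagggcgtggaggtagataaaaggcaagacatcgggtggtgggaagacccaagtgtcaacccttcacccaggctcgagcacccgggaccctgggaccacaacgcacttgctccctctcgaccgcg
Ucp3 promoter, chr7:100472741-100473040, plus strand: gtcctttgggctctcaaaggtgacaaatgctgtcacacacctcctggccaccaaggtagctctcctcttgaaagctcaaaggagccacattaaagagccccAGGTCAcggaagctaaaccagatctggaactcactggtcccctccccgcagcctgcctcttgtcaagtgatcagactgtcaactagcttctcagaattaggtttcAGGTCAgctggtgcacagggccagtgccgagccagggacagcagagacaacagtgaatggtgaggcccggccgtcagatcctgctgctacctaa
Plin5 promoter, chr17:56117499-56117798, minus strand: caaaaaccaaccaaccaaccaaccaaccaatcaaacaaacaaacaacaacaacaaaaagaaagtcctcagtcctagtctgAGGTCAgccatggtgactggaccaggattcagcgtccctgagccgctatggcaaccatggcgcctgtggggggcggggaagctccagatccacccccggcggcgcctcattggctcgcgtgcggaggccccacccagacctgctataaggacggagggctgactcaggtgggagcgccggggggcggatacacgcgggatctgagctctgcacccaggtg

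The Ucp3 promoter held 2 half-sites and the Plin5 promoter 1, while the 300 bases at Pdk4 held none. AGGTCA, on either strand, occurs in 16.3% of 32841 promoters of the same length and in 12.6% of 13728 promoters of tested genes. With members that did not separate the sets included, it was in 9 of 31 promoters (29%) of Pdk4 and the lipid list. It was in 6 of 23 promoters (26.1%) of Pdk4 and the lipid genes that separated the sets, for which 20 genes were matched. The tandem form AGGNCANAGGNCA, which includes AGGTCA where the N inside either AGGNCA is T, was searched on both strands and was in 0.381% of all promoters and in none of those 23. These are matches of letters within a short window and say nothing about binding.

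Pdk4 (ENSMUSG00000019577.6, chromosome 6 from 5483351 to 5496278) had 5611, 3364 and 4623 normalised counts in control 490, knockout 492 and knockout 501. It had 1989, 2038 and 1338 in control 498, knockout 499 and control 502. Below, values always follow this order, the high-Pdk4 libraries first and then the low-Pdk4 ones. The threshold fell between knockout 492, at 3364 just inside, and knockout 499, at 2038 just outside. The highest library had 4.19 times the lowest. Within genotypes Pdk4 ranked 10th in spread (SD on the log2 scale) among 13594 features with a mean of at least 50 normalised counts.

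The genotype groups overlapped in Pdk4, as they had to, since each Pdk4 set holds both genotypes. That overlap also keeps the exact permutation p given below from reaching its minimum of 0.1. Controls averaged 2980 ± 2302 normalised counts (SD, n = 3) and knockouts 3342 ± 1293 (SD, n = 3). The log2 fold change of knockout over control was 0.36 (95% interval -0.47 to 1.19, limma adjusted p = 1.00), and the 2-sided exact permutation p was 0.7, where 3 against 3 libraries cannot give less than 0.1. Without control 502, the library with the least Pdk4, the difference turned to -0.078.

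**Figure D1:**
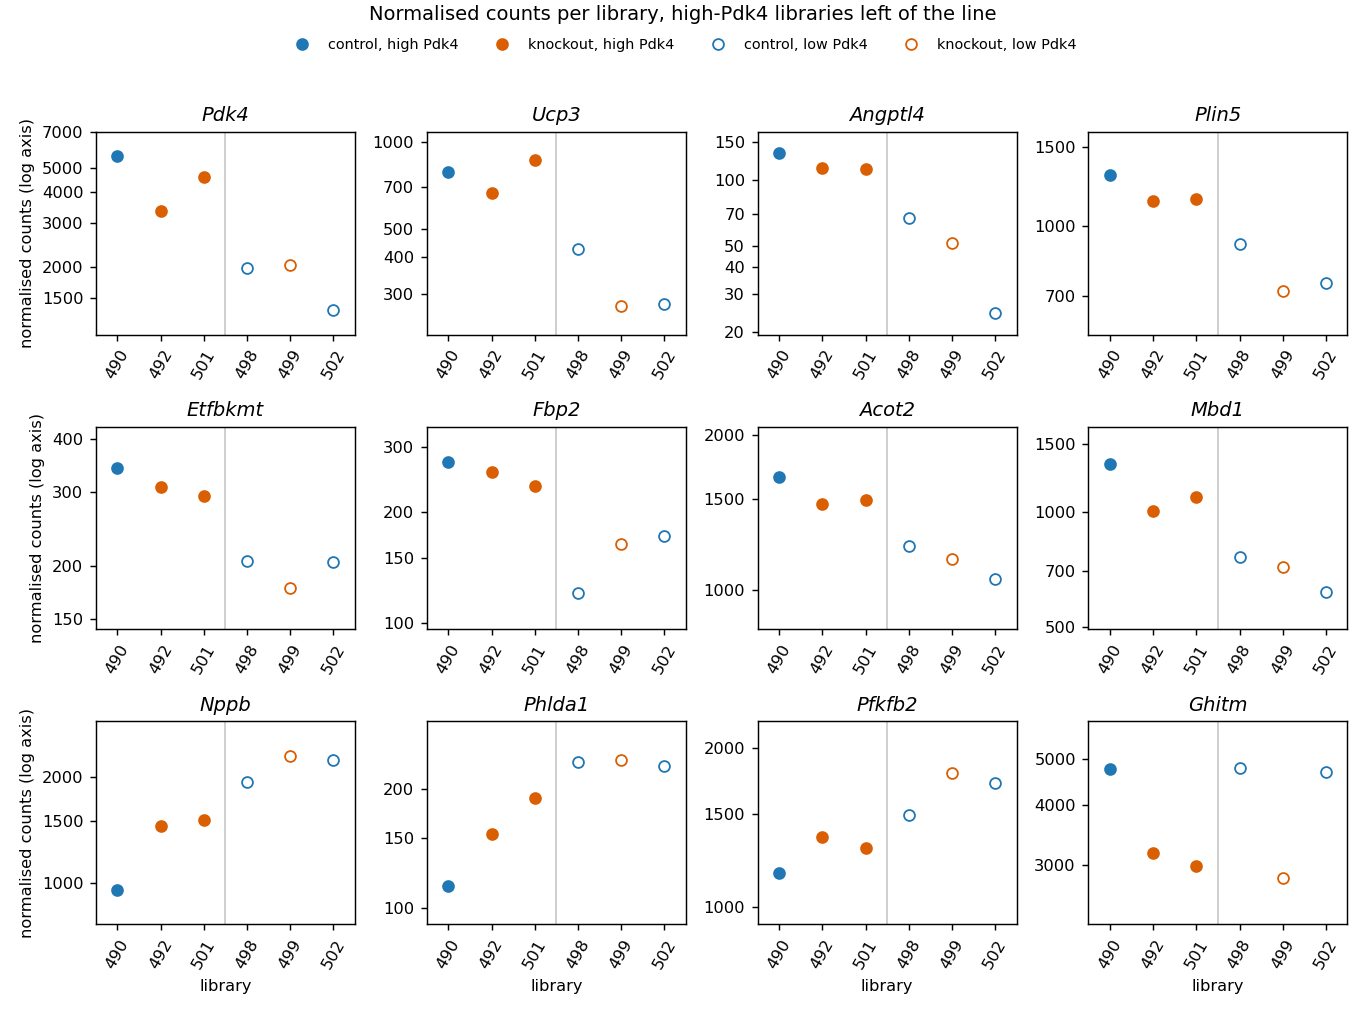
Normalised counts in each of the 6 libraries (log axes) for Pdk4 and 11 other genes, with controls in blue, knockouts in orange, and the high-Pdk4 libraries filled and left of the line. Pdk4 runs from 1338 to 5611 with both genotypes on either side, and Ghitm, in the last panel, divides by genotype instead.

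A feature was said to follow Pdk4 when all 3 high-Pdk4 libraries lay on 1 side of all 3 low-Pdk4 libraries. Its gap is log2(value + 1) of the lowest library of the upper set minus that of the highest library of the lower set, so that a gap above 0 means no overlap. The mean over the libraries was at least 10 normalised counts in 18250 features, and of these 1202 (6.59%, Pdk4 included) followed upwards and 1152 (6.31%) were lower in the high-Pdk4 libraries, without overlap. Most gaps were small, with a median of 0.055 among the features that were higher. A gap of at least 1.2-fold was left in 97 features (0.532%) on the high side and 73 (0.4%) on the low side, and one of at least 1.5-fold in 11 (0.0603%) and 6 (0.0329%).

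The genotype labels, counted in the same way, set 1735 features apart (9.51%), 841 higher (4.61%) and 894 lower (4.9%) in knockouts. Of these, 97 (0.532%) kept a gap of at least 1.2-fold and 3 (0.0164%) one of at least 1.5-fold, against 170 (0.932%) and 17 (0.0932%) features in either direction for the Pdk4 sets. No feature can be in both counts, since each labelling divides the same libraries differently. The Pdk4 sets were drawn from a measured value and the genotype groups were not, so the counts are set side by side without a test. When every library was scaled to the same total, 661 features followed upwards and 1676 downwards, and 2751 separated the genotypes.

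**Figure D2:**
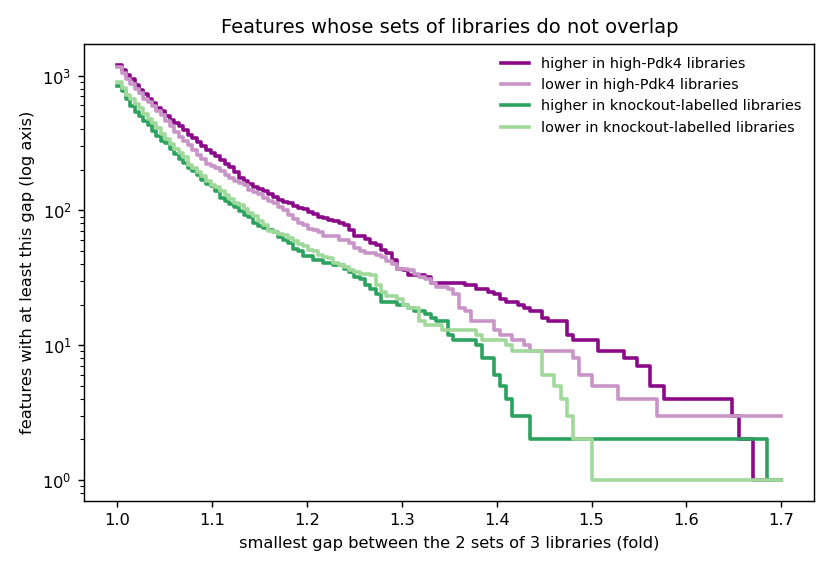
Number of features, of 18250, with at least a given gap between library sets (log axis) against that gap as a fold from 1 upwards, by direction, for high-Pdk4 against low-Pdk4 libraries (purple) and knockout-labelled against control libraries (green). At a gap of 1.2-fold the purple lines are at 97 (higher) and 73 (lower).

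Principal components were computed over all 18250 features. The first, with 26.4% of the variance, placed the high-Pdk4 libraries at 30.1, 5.36 and 5.63 and the low-Pdk4 libraries at -9.05, -16.7 and -15.4. Genotype appeared only on the third, with 18.2%, where controls lay at -13.7, -12.9 and -11.3 and knockouts at 18.0, 3.91 and 16.0. The second component (22.5%) mainly set the knockouts 492 (-25.5) and 501 (25.9) against each other, and these are both high-Pdk4 libraries. Pdk4 is 1 of the features behind these axes. With control 490 left out, the second component (26.7%) separated the Pdk4 sets. Knockouts 492 and 501 lay at 19.5 and 18.1, and the other libraries between -16.9 and -9.71. The high-Pdk4 libraries were then both knockouts, so the part of genotype in this component cannot be fully separated from that of the Pdk4 sets. Knockout 499, a low-Pdk4 library, lay at -11.0, between the controls.

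**Figure D3:**
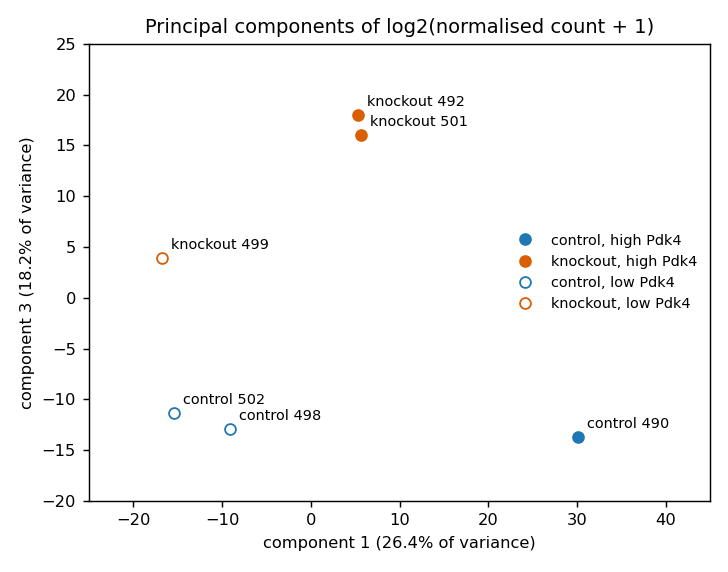
Scores of the 6 libraries on principal components 1 (horizontal) and 3 (vertical) of log2(normalised count + 1) over 18250 features, with genotype by colour and high-Pdk4 libraries filled. All high-Pdk4 libraries lie right of 0 and all low-Pdk4 libraries left of it, while controls lie below 0 and knockouts above.

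Control 490 was more often at the extreme than the other high-Pdk4 libraries. It was the most extreme of the 3 high-Pdk4 libraries in 512 of the 1202 features that were higher (42.6%) and in 457 of the 1152 that were lower (39.7%). The other high-Pdk4 libraries, 492 and 501, were the most extreme in 314 and 376 of the features that were higher. Leaving control 490 out cannot undo a separation, and with 5 libraries 1946 features were higher (10.7%) and 1863 lower (10.2%). The high-Pdk4 libraries left, 492 and 501, are both knockouts, so features that differ by genotype can enter these 5-library counts. The complete order of the 6 libraries by Pdk4 was shared by 48 features (0.263%) and reversed in 39 (0.214%).

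Genes of fatty acid uptake, storage and oxidation were mostly higher in the high-Pdk4 libraries. Of 33 listed PPAR and fasting targets, 31 passed the filter on low values, and Fgf21 and Creb3l3 did not. In 24 of the 31 (77.4%) all high-Pdk4 libraries lay above all low-Pdk4 libraries, against 6.59% of all features, and none was separated the other way. The list includes Ucp3, Angptl4 and Plin5, which were named with the library sets, and 21 of the other 28 followed. By genotype 2 members, Plin2 and Acadl, were separated, both higher in knockouts by small gaps. The 24 that followed Pdk4 could not separate the genotypes, so only the 7 that overlapped could. Of all features, 15896 overlapped between the Pdk4 sets, and 841 of these were higher in knockouts without overlap. With so few members able to count, no reading is made of the 2. The list was assembled with earlier results of these data known and its genes are co-regulated, so its count is a description.

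Ucp3, a mitochondrial carrier linked to fatty acid oxidation in muscle, had 789, 667 and 869 normalised counts in the high-Pdk4 libraries and 427, 271 and 277 in the low-Pdk4 ones. Its gap was 0.64, and knockout 501 rather than control 490 was highest. Angptl4, a secreted inhibitor of lipoprotein lipase, had 133, 114 and 112 against 66.7, 51.1 and 24.4, a gap of 0.73. Angptl4 and Pdk4 had their lowest value in the same library, control 502. For Plin5, which coats lipid droplets and ties them to mitochondria, the values were 1301, 1140 and 1153 against 915, 717 and 746, a gap of 0.32.

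Genotype gave none of these an adjusted call. They separate the Pdk4 sets, which hold both genotypes, so their genotype groups had to overlap and a call was unlikely from the start. The log2 fold change of knockout over control was 0.25 (95% interval -0.55 to 1.05) for Ucp3, 0.52 (-0.46 to 1.49) for Angptl4 and 0.03 (-0.37 to 0.43) for Plin5, each with a limma adjusted p of 1.00. Since Ucp3 does not overlap between the sets, it also differs within each genotype, and the sizes are these: it was 2.46 and 3.21 times as high in knockouts 492 and 501 as in knockout 499. In controls it was 1.85 and 2.85 times as high in 490 as in 498 and 502.

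The steps of fatty acid use followed from entry to oxidation. Cd36, the fatty acid transporter of the surface membrane, had 15106, 14162 and 13354 against 12967, 12261 and 12138 normalised counts, a gap of 0.04. Fabp3, the cytosolic carrier of heart, had 8926, 9076 and 8170 against 7603, 7499 and 7346. Acsl1, which activates fatty acids to acyl-CoA, had 11303, 10761 and 10992 against 9651, 9536 and 9932. These separations came without overlap but were narrow: the lowest high-Pdk4 library exceeded the highest low-Pdk4 library by a log2 gap of 0.10 for Fabp3 and 0.12 for Acsl1.

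Entry into mitochondria followed at each step listed. Cpt1a had 1073, 982 and 1148 against 906, 862 and 722, and Cpt1b, the muscle form, 650, 554 and 573 against 509, 462 and 479. Slc25a20, which carries acylcarnitine across the inner membrane, had 1780, 1596 and 1597 against 1397, 1397 and 1351. Cpt2, which returns the acyl group to CoA, had 3307, 3037 and 3113 against 2581, 2675 and 2702. The log2 gaps of these 4 lay between 0.12 (Cpt1a and Cpt1b) and 0.19 (Slc25a20). Mlycd, which removes the malonyl-CoA that inhibits CPT1, had 1443, 1297 and 1326 against 1168, 1083 and 1065.

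Within the matrix, the enzymes split. Acadvl (very-long-chain acyl-CoA dehydrogenase), Hadha, Acaa2, Ech1, Decr1 and Etfdh all followed, with Acaa2 at 5436, 5112 and 4594 against 4193, 3938 and 3775. Acadm, the medium-chain dehydrogenase, overlapped at 8322, 7581 and 6790 against 7294, 6576 and 6799. Acadl, the long-chain dehydrogenase, and Eci1 also overlapped. Acot2, a mitochondrial thioesterase, had the widest gap of the list after the 3 genes above, 0.27, with 1658, 1468 and 1496 against 1217, 1151 and 1050. Its near-identical neighbour Acot1 had 264, 203 and 170 against 165, 119 and 128, and reads may be shared between the pair.

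Lipid storage and release gave a mixed account. Plin2, another droplet coat protein, overlapped at 510, 536 and 526 against 503, 511 and 418. Lpl, the lipase that Angptl4 inhibits, overlapped at 49001, 49258 and 45919 against 50843, 48864 and 48753. Pnpla2, the triglyceride lipase, followed by a gap of 0.01, while its inhibitor G0s2 overlapped.

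**Figure D4:**
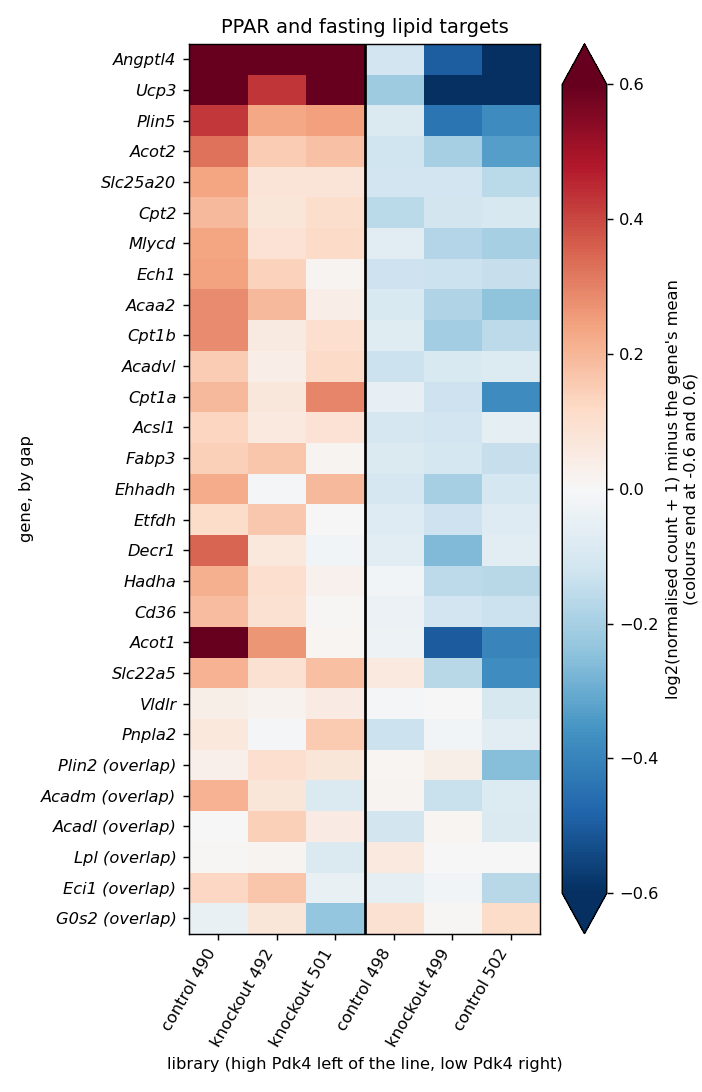
The members of the PPAR and fasting lipid list that are reported here (rows, by gap) in each library (columns, high-Pdk4 left of the line), coloured by log2(normalised count + 1) minus the gene's mean over the 6 libraries, red above it and blue below. Members whose sets overlap are marked, and colour is deepest for Angptl4 and Ucp3, where it ends at -0.6 and 0.6.

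The receptors themselves overlapped between the sets. None of 15 PPAR, RXR, ERR and coregulator genes followed, where 12.9% of all features follow in either direction, so few would follow at that share. Ppara, Ppard and the coactivator Ppargc1a are given here although their values were seen first. Ppara had 1064, 983 and 916 normalised counts against 971, 855 and 990, and Ppard 316, 273 and 310 against 355, 270 and 304. Ppargc1a had 2186, 2034 and 2012 against 1798, 2039 and 1864, so that only knockout 499 overlapped the upper set. Of the most abundant genes of the list, Lpin1 had 3010, 2814 and 2864 against 2786, 2852 and 2904, and the corepressor Ncor1 2539, 2491 and 2538 against 2523, 2348 and 2348.

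Glucocorticoid targets divided the high-Pdk4 libraries among themselves. Of 20, 3 followed upwards (15%, against 6.59% of all features): Nfkbia, the inhibitor of NF-κB, at 449, 411 and 477 against 337, 351 and 349, Cebpd at 216, 163 and 235 against 141, 130 and 136, and Sgk1 by a gap of 0.02. The sets of Sgk1 overlapped when libraries were scaled to equal totals. In the whole list the median deviation from the gene's mean was 0.26 in control 490 and 0.38 in knockout 501, but -0.16 in knockout 492, below all low-Pdk4 libraries.

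Fkbp5, a chaperone of the glucocorticoid receptor and among its most used reporter genes, shows this pattern and was chosen after its values were seen. It had 706 and 827 normalised counts in control 490 and knockout 501, and 301 in knockout 492, within the 292 to 353 of the low-Pdk4 libraries. Arrdc2 had 472 and 420 in those libraries, 131 in knockout 492 and 147 to 161 in the low-Pdk4 set. Zbtb16 had the same pattern, at 5820 and 5106, with 2351 in knockout 492 and 2138 to 3439 in the low-Pdk4 set. Knockout 492 lay below the highest low-Pdk4 library in 16 of the 20 genes (80%), and in 72.5% of all features tested. It had the least Pdk4 of its set, 3364, but its Ucp3, Angptl4 and Plin5 were apart from the low-Pdk4 libraries.

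Low-insulin and FoxO targets mostly overlapped between the sets. Cited2 was the 1 of 24 that followed, at 520, 515 and 575 against 479, 468 and 439. That is 4.2%, against 6.59% of all features upwards and 12.9% in either direction. Irs2 and Foxo1 overlapped, and the atrophy gene Trim63 had 1480, 1491 and 1464 against 1483, 1668 and 1662. Ddit4, which glucocorticoids are known to induce, had 485, 219 and 557 against 244, 251 and 178, with knockout 492 again among the low-Pdk4 libraries. These genes were named after their values were seen.

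Clock genes mostly overlapped, as most features do. None of 21 repressors and outputs followed, against 12.9% of all features in either direction. Tef had 4784, 4267 and 4962 against 4459, 4530 and 4381, and Nr1d2 3511, 3537 and 3409 against 3524, 3432 and 3413. Dbp, an output with a strong daily swing that was looked at for that reason, had 2019, 2068 and 2115 against 2060, 1790 and 2076. Among 6 activators, Arntl followed at low counts, 35.7, 34.3 and 47.4 against 28.2, 33.1 and 26.5. The hour at which hearts were taken is not given in the labels, and its part was not tested.

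Genes of glucose use went both ways, 4 higher and 4 lower among 28 (14.3% each, against 6.59% and 6.31% of all features). Pfkfb1 and Pfkfb2 encode forms of the enzyme that sets fructose 2,6-bisphosphate, the activator of glycolysis, and separated in opposite directions. Pfkfb1 had 486, 416 and 492 normalised counts against 341, 341 and 300. Pfkfb2, the heart form that insulin signalling activates, had 1160, 1357 and 1291 against 1491, 1794 and 1718. Txnip, which restrains glucose uptake, had 11124, 10127 and 11728 against 9330, 7778 and 4652, with control 502 far below the others. The hexokinases Hk1 and Hk2 were lower in the high-Pdk4 libraries by gaps of -0.03 each, and the glucose transporter Slc2a4 overlapped.

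Genes of the complex that PDK4 inhibits mostly overlapped, as most features do. Of 13 genes for pyruvate dehydrogenase, its kinases and phosphatases and the pyruvate carriers, Mpc2 (gap 0.03) and Dlat (gap below 0.01) followed upwards. That is 15.4%, against 6.59% of all features, and both genes overlapped with equal library totals. The kinases Pdk1 and Pdk2 did not follow: Pdk2 had 2018, 2156 and 2156 against 2262, 2392 and 2148. Pdha1, the phosphorylated subunit, and Pdk1 separated by genotype instead and are described with it below.

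Lipid synthesis split within the desaturase family. Scd4, the heart form of stearoyl-CoA desaturase, had 221, 238 and 381 normalised counts against 192, 165 and 125. Scd1 had 283, 295 and 279 against 311, 385 and 375, and Scd2 312, 343 and 382 against 388, 481 and 524. The family is similar in sequence, so reads may be divided between its members. The acetyl-CoA carboxylases did likewise: Acacb, the mitochondrial-membrane form, was higher (5729, 5760 and 5760 against 5419, 5063 and 5017) and Acaca, the cytosolic form, lower (229, 263 and 263 against 268, 280 and 298). In all, 4 of the 21 tested genes were higher (19.0%, against 6.59% of all features) and 3 lower (14.3%, against 6.31%). Cat, the peroxide-removing catalase, was higher at 2375, 2410 and 2327 against 2178, 2068 and 1872.

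Over the whole transcriptome, the named genes with the widest gaps and means of at least 50 included others of mitochondrial and fuel metabolism. Etfbkmt, a methyltransferase of the electron transfer flavoprotein that accepts electrons from fatty acid oxidation, had 342, 307 and 293 against 206, 177 and 205, a gap of 0.51. Fbp2, the muscle fructose bisphosphatase, had 272, 255 and 235 against 120, 164 and 172, a gap of 0.45. Acsm5, a medium-chain acyl-CoA synthetase of mitochondria, had 192, 184 and 165 against 128, 119 and 75.3. Mbd1, a reader of methylated DNA, had 1334, 1008 and 1094 against 763, 718 and 618.

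The rest of those 12 with the widest upward gaps were Car4, a membrane carbonic anhydrase, Mcf2l, a guanine nucleotide exchange factor, Armc6, Abcb6 and Impa2, with gaps from 0.32 to 0.35, and Ppbp. Ppbp, a platelet chemokine, rests on control 490 for its spread, at 148 against 59.0 and 66.6 in the other high-Pdk4 libraries and 40.7 to 46.8 in the low-Pdk4 ones. Lipe and Gpam were chosen after their values were seen, as genes of triglyceride breakdown and synthesis. Lipe, the hormone-sensitive lipase, had 944, 832 and 861 against 692, 618 and 502. Gpam, the mitochondrial acyltransferase that begins glycerolipid synthesis, had 3127, 3133 and 3134 against 2629, 2622 and 2247, so that the high-Pdk4 libraries were closely alike.

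Downward, the best known heart gene was Nppb, which encodes the natriuretic peptide released by strained cardiomyocytes. It had 953, 1445 and 1503 normalised counts in the high-Pdk4 libraries and 1937, 2297 and 2237 in the low-Pdk4 ones, a gap of -0.37. Its averages by genotype were 1709 ± 671 in controls and 1748 ± 476 in knockouts (SD, n = 3 each), with a log2 fold change of 0.09 (limma adjusted p = 1.00). Since Nppb separates the Pdk4 sets, its genotype groups had to overlap. Gdf15, a stress-induced hormone, had 11.6, 12.9 and 32.7 against 42.3, 38.8 and 38.7. Of 12 stress genes tested these 2 were lower (16.7%, against 6.31% of all features), and the other 10 overlapped. Nppa had 1935, 1681 and 2467 against 2441, 2057 and 2746, and Ankrd1 had 12366, 14215 and 17856 against 19024, 18886 and 17394.

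Nrg1, the growth factor that endothelial cells send to cardiomyocytes, had 51.8, 44.0 and 62.0 against 86.5, 102 and 79.4. Phlda1 had 113, 153 and 190 against 234, 238 and 229. Aqp8, a water and peroxide channel, had 25.9, 45.1 and 41.7 against 60.2, 65.3 and 75.3, and has the widest downward gap of the named genes, -0.41. Cdh11, a cadherin of mesenchymal cells, Rbl1, a cell cycle repressor of the retinoblastoma family, Lmo2, Cnn2, Hist1h4k, Mrpl52, Atox1 and Pdzd3 complete the 12, with gaps from -0.37 to -0.24. Histone transcripts share sequence between gene copies, so Hist1h4k is uncertain.

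Immediate early genes switch on within minutes of a stimulus. Of 23 tested, 6 were lower in the high-Pdk4 libraries (26.1%, against 6.31% of all features) and 1, Egr2, was higher (4.3%, against 6.59%), at low counts. Junb had 189, 202 and 205 against 255, 237 and 250, Ier3 390, 366 and 404 against 488, 462 and 432, and Fosl2 684, 581 and 633 against 745, 746 and 728. Nr4a2 had the widest gap, -0.32, at 8.94, 9.66 and 5.64 against 16.9, 12.3 and 18.3. Fos overlapped, with 21.4, 22.5 and 31.6 against 60.2, 25.6 and 26.5, and is named after its values were seen.

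The counts of the other lists are read against 6.59% of all features higher and 6.31% lower. Heat shock genes followed upwards in 1 of 20 (5%), Hspd1, and genes of ketone and branched-chain amino acid use in 2 of 17 upwards (11.8%) and 1 downwards (5.9%). Matrix genes were lower in 3 of 20 (15%), all by gaps of -0.02 or nearer to 0. Oxidative defence genes were 1 higher and 1 lower of 16, near the share of all features. Of 10 mRNAs from the heavy strand of mtDNA none followed, with mt-Co3 at 1138900, 1142500 and 1053400 against 1101700, 1065700 and 1097600. Of 27 interferon-stimulated genes 1, Bst2, followed, downwards (3.7%). Of the same 27 genes 5 separated the genotypes, all higher in knockouts, a larger share than the 4.61% of all features. Limma called none of the 27.

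**Figure D5:**
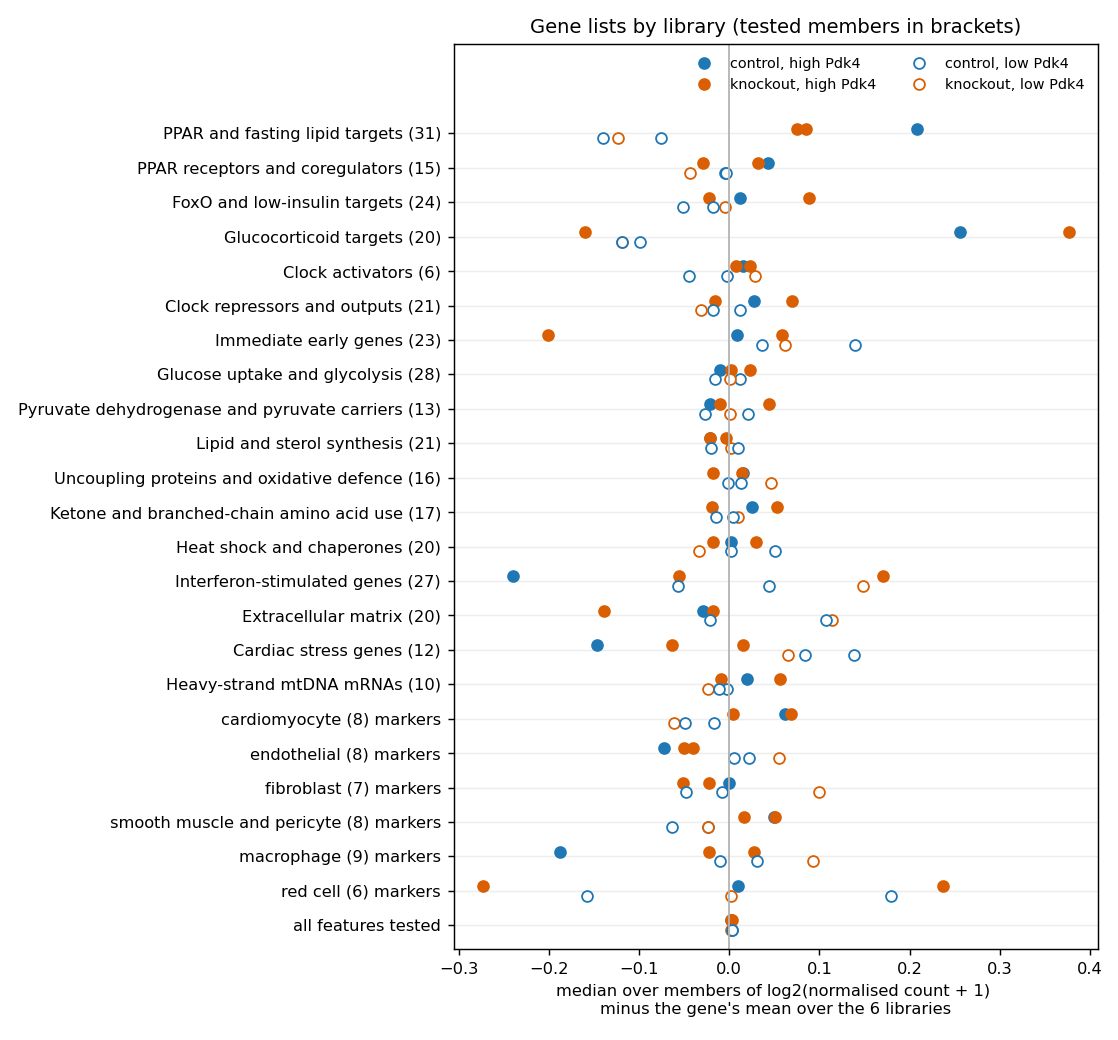
For each gene list (tested members in brackets) and each library, the median over its members of log2(normalised count + 1) minus the gene's mean over the 6 libraries. The PPAR and fasting lipid list has its high-Pdk4 libraries between 0.07 and 0.21 and its low-Pdk4 libraries between -0.14 and -0.08, whereas glucocorticoid targets place knockout 492 at -0.16.

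Markers of heart cell types were compared in the same way, since in bulk RNA fewer cells of a type and less RNA per cell cannot be told apart. The 8 cardiomyocyte markers summed to between 466260 and 499900 normalised counts in the high-Pdk4 libraries and between 452280 and 464020 in the low-Pdk4 ones, without overlap, and 4 of 8 followed upwards, against 6.59% of all features. Of these 4, Fabp3 is also in the PPAR list, and Ckm, Myh6 and Myl3 had gaps of 0.02 or less. The median deviation of the list was 0.062, 0.068 and 0.0045 against -0.02, -0.06 and -0.05, beside 0.21, 0.08 and 0.07 against -0.08, -0.12 and -0.14 for the PPAR list.

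Endothelial markers lay the other way in their sums, 12307 to 12952 against 13427 to 13693, to which the most abundant members contribute most. Of the 8, 1, Cdh5, followed downwards (12.5%, against 6.31% of all features), and the other 7 overlapped. Among those 7, Tie1 was highest in knockout 501 (1340) and Emcn in knockout 492 (541), both high-Pdk4 libraries. The list's median deviations were -0.07, -0.04 and -0.05 against 0.02, 0.06 and 0.01. Fibroblast sums overlapped at 12845 to 13301 against 12854 to 14088, and macrophage sums at 2829 to 3180 against 3081 to 3261. Of 9 macrophage markers 1, Cd68, was lower (11.1%, against 6.31% of all features), at 60.8, 80.5 and 80.1 against 97.8, 92.8 and 91.6. The other 8 overlapped. In the smooth muscle and pericyte list, 2 of 8 were higher (25%, against 6.59% of all features), Tagln and Acta2, while the sums overlapped. The part of cell makeup in the genes that follow Pdk4 was not tested.

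Markers of fat tissue, which also expresses Angptl4 and Lipe, were near 0. No adipocyte marker passed the filter, and the 7 summed to between 6.25 and 18.3 normalised counts, with Lep at 0 in every library. Of the brown adipocyte markers Ucp1 and Elovl3 did not pass the filter, and Cidea, which heart muscle can express, had 132, 144 and 121 against 103, 99.4 and 101. Skeletal muscle markers summed to at most 29.4 and lung markers to 0. Of 6 atrial markers 3 passed the filter, Nppa among them, and their sets overlapped. The atrial markers Myl7 and Sln had at most 3.38 and 0.894 normalised counts in any library, beside at least 23131 of the cardiomyocyte marker Myl2. Red cell sums overlapped, from 16895 to 23659 in the high-Pdk4 libraries and from 17320 to 22631 in the low-Pdk4 ones.

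Between genotypes, limma called 4 of 18250 features (0.0219%), all lower in knockouts. Each of them separated the genotypes without overlap, so none could follow Pdk4. At an unadjusted p below 0.05 there were 675 (3.7%). Ghitm, an inner-membrane protein of mitochondria, had 4757, 4788 and 4694 in controls 490, 498 and 502 and 3179, 2823 and 2985 in knockouts 492, 499 and 501. Its log2 fold change was -0.67 (limma adjusted p = 9.58e-05). Cpe, a carboxypeptidase of prohormone processing, differed by -0.52 (limma adjusted p = 0.00399) and the transcript 4930519F09Rik by -0.37 (limma adjusted p = 0.0250). The latter is annotated as a transcribed pseudogene, so its reads may be shared with another gene.

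Pdha1, the catalytic subunit on which PDK4 acts, was called with a log2 fold change of -0.33 (limma adjusted p = 0.0126). Its 13266, 13218 and 13189 normalised counts in controls stood apart from 10841, 10375 and 10397 in knockouts, and each knockout value was below each control whether Pdk4 was high or low. Pdk1 had the same shape without a call, at 3411, 3420 and 3341 in controls and 2951, 2832 and 2827 in knockouts.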

How the data were processed

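Total RNA of whole mouse heart, depleted of ribosomal RNA and primed with random hexamers, was sequenced in 3 control and 3 knockout libraries, per the labels' protocols. The authors deposited normalised counts per feature, a signal on a linear scale. Per the submitters' processing notes, the tools were featureCounts, bedtools, DESeq2 1.22.2 in R 3.5.2, and Bowtie2 2.3.4.1, and the builds GRCm38 and mm10, whose roles are not given in the sources used here. Strand handling in counting is likewise not given, so antisense and overlapping genes may not be separated. Whole reads were recovered for 100% of 156689 nonzero values (tolerance 0.01). The table has 54751 features, and 54686 of 54715 Ensembl identifiers were matched to symbols. Positions are 1-based, from RefSeq GRCm38. No 2 libraries of a group agreed within counting noise (chi-square per degree of freedom 3.53 to 15.2), so each counted as 1 sample.

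A feature was kept where its 6 values averaged 10 or more, which left 18250. Values were used as log2(value + 1), a scale on which changes of low genes look smaller than they are. Genotype was tested with limma 3.58.1 (R 4.3.3), trended prior, genotype as the only term, 2-sided, with Benjamini-Hochberg adjustment at 0.05 over all features, after a check on simulated data. The Pdk4 sets were described only by library values, non-overlap and gap. Named genes were Pdk4, Ucp3, Angptl4, Plin5, Rexo2, up to 12 annotated genes per direction with the largest gap and a mean of at least 50, up to 4 members per list and direction that follow, or else the 2 most abundant, and features called between genotypes. Every other gene given with values, further members of the PPAR list included, was chosen after its values were seen. Some members of the lists enter the counts but are not reported here by name. The library sets, gene lists and rules were chosen with earlier results of these data known. Alternatives covered the pseudocount, filter, scaling, trend, edgeR 4.0.16 and DESeq2 1.42.0 on recovered reads, the size of the gap, and leaving out each library.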

Additional observations from a re-analysis of the deposited data

How the results depend on the processing

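Features called between genotypes numbered 4 in the fit described, and 12 without a filter, 37 with equal library totals, 0 for limma without a trend, 31 with DESeq2 on recovered reads, and 1 to 8 on leaving out each library. Without control 490 there were 8 and without control 498, control 502 or knockout 499 there was 1. For features higher in the high-Pdk4 libraries (1202), equal totals gave 661, a gap of at least 1.2-fold 97, one of 1.5-fold 11, and leaving out each library 1946 to 2415. For those lower (1152), a gap of 1.2-fold gave 73, one of 1.5-fold 6, and leaving out each library 1863 to 2472. For features that separate the genotypes (1735), equal totals gave 2751, gaps of 1.2-fold and 1.5-fold gave 97 and 3, and leaving out each library 3219 to 3908. With fewer libraries to keep apart, these counts rise by construction. Without control 490 all high-Pdk4 libraries are knockouts, and without knockout 499 all low-Pdk4 libraries are controls. Features that differ by genotype can therefore enter the Pdk4 counts in these settings. The PPAR and fasting lipid count of 24, whose alternatives were added after seeing the data, was 4 at 1.2-fold, 2 at 1.5-fold, 17 with equal totals, 22 with equal totals of nuclear features and 24 to 27 on leaving out each library. The components without control 490 were also added after seeing the data. Of 65 named genes that follow, the sets overlapped in 11 with equal totals (Srebf1, Hspd1, Mpc2, Ldha, Mut, Sgk1, Aldh6a1, Dlat, Gpx1, Col15a1 and Col4a1), in 6 with equal totals of nuclear features and in 1 with TMM (Col1a1). No named gene changed sides. The genotype difference of Pdk4 ran from -0.078 to 0.955 on leaving out each library, the lowest without control 502, and was 0.163 with edgeR and 0.165 with DESeq2 against 0.36 with limma. For Angptl4 edgeR gave 0.266 against 0.52 with limma. Leaving out each library gave -0.105 to 0.746 for Ucp3, -0.121 to 1.08 for Angptl4 and -0.154 to 0.254 for Plin5, each lowest without control 502. The sign of Ucp3 also turned without knockout 501 (-0.094). The difference of Plin5 was -0.041 with equal totals, and -0.080, -0.0070 and -0.088 without knockout 492, control 498 and knockout 501. The cause was not tested. No paired analysis was possible because the table columns carry no replicate number.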
